A study of Mus musculus with 21 samples.

Results

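The interaction of Hsf1 knockdown with the cell line was measured for each gene as the log2 fold change that Hsf1 siRNA gave in cells expressing GCN5 minus the log2 fold change that it gave in cells expressing LacZ. It used 12 RNA libraries of a series of 21 samples and was tested over the 12187 genes that passed a minimum-count filter, out of 41608 in the count table. An interaction of 0 means that the knockdown changed a gene by the same factor in both lines, a positive value that the GCN5 line had the higher response, and a negative value that it had the lower one. The cells were immortalized mouse embryonic fibroblasts (MEFs) that stably expressed either LacZ, a bacterial enzyme used as the control protein, or GCN5 carrying a V5 tag. Each line was transfected for 2 days with 10 nM of a control siRNA (siControl, genotype given as Hsf1 WT) or of an siRNA against Hsf1 (siHsf1, genotype given as Hsf1 KD). The 4 groups, LacZ siControl, LacZ siHsf1, GCN5 siControl and GCN5 siHsf1, held 3 libraries each. The labels give ERCC spike-in mix 1 for RNA of the siControl groups and mix 2 for RNA of the siHsf1 groups. There is 1 line per construct, and whether a line is a clone or a pool is not given in the sources used here, so a difference made by GCN5 and any other difference between the lines cannot be told apart. The species of the tagged GCN5 and the promoter that drives it are not given either, so that mouse Kat2a counts do not test that label.

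HSF1 is the transcription factor of the heat-shock response. It binds heat shock elements, which are alternating inverted repeats of GAA, and keeps genes of protein chaperones such as HSP90 and HSP70 active. GCN5, the product of Kat2a, is the catalytic subunit of the SAGA and ATAC complexes, which acetylate histone H3 at active promoters. c-MYC, encoded by Myc, binds the E-box CACGTG together with MAX and is known for driving genes of ribosome production, nucleotide synthesis and growth. Interferon-stimulated genes carry the interferon-stimulated response element (ISRE), built from repeats of GAAA and bound by proteins of the IRF family.

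The 250 bases before the gene start, from RefSeq (GRCm38.p6) and printed 5′ to 3′ on the strand of the gene, are shown for 6 genes, chosen after their values were seen to stand for the shapes described below. Capitals mark the motif found by a search for GAANNTTC or TTCNNGAA (heat shock element), GAAA followed after 2 bases by GAAA, or its reverse complement (ISRE), or CACGTG (E-box). A match describes the letters and is neither a binding site nor a cause. Fkbp4 (chr6:128438657-128438906, minus strand, RefSeq start 25 bases from the start in the count table) kept part of its fall in the GCN5 line and has 1 heat shock element. Hspe1 (chr1:55087898-55088147, plus strand) was called in LacZ but not in GCN5 and has 3 overlapping ones, and Hspb1 (chr5:135887669-135887918, plus strand) has 2 and an interaction that missed the threshold. Ifit1 (chr19:34640639-34640888, plus strand), an interferon-induced gene, has 2 ISREs. Eef2 (chr10:81176381-81176630, plus strand) and Dazap2 (chr15:100615412-100615661, plus strand) have 1 E-box each, at 43 and 37 bases before the start, yet the fall was lost in Eef2 and kept in Dazap2.
Fkbp4: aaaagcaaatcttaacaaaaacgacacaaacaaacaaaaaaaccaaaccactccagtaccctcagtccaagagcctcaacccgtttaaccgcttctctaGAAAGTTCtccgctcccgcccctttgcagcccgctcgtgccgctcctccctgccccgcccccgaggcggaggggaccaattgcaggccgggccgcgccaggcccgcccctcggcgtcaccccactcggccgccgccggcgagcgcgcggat
Hspe1: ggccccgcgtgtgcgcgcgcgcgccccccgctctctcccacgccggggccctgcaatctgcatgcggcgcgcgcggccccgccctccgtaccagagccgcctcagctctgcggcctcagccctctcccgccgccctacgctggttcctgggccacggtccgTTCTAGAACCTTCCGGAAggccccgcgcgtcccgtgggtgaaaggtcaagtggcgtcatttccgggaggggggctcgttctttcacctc
Hspb1: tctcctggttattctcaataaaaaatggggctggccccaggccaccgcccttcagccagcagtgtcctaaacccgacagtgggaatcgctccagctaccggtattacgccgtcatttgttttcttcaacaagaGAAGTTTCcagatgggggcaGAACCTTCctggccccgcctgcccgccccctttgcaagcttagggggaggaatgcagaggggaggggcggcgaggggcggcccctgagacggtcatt
Ifit1: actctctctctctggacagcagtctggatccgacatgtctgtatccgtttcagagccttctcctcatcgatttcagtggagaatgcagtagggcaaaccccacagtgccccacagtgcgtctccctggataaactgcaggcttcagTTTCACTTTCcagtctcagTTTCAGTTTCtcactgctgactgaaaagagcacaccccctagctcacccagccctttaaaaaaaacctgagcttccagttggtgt
Eef2: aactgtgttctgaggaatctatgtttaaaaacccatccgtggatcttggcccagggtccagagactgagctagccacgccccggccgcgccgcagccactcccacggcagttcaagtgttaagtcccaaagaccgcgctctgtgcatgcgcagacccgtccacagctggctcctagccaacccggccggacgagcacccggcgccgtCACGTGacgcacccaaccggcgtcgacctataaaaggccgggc
Dazap2: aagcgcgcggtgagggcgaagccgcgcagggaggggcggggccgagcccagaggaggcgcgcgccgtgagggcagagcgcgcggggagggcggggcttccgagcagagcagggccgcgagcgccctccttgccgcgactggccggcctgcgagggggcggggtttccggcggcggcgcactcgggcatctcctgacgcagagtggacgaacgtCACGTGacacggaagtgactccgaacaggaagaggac

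The LacZ libraries held 7.22 to 8.16 M (mega) gene counts and the GCN5 libraries 3.69 to 4.27 M, so that depth and line coincide. When the LacZ libraries were thinned to the depth of the GCN5 libraries, 2403 interactions passed in place of 2675. A count of 0 allows up to 0.368 to 0.812 counts per megacount (CPM) in a library, a limit from 3 counts that covers counting error only. Of 10 fibroblast markers 9 passed the filter, with Fn1 the highest at a mean of 2590 CPM and Thy1 not passing, at 0 CPM in every group but LacZ siHsf1 (mean 0.0407 CPM), and their summed level ran from 6550 to 10800 CPM. Spike-in transcripts that are equal in both mixes (ERCC subgroup B, 23 transcripts) took 0.143% to 0.242% of counts in LacZ siControl, 0.178% to 0.362% in LacZ siHsf1, 0.199% to 0.3% in GCN5 siControl and 0.231% to 0.291% in GCN5 siHsf1. The labels name different mixes for siControl and siHsf1, while counts of subgroup A over those of subgroup B stayed between 1.36 and 1.54 in all 12 libraries. Among all spike-in transcripts with more than 300 summed counts, whatever their subgroup, the log2 ratio of siControl to siHsf1 counts had an SD between transcripts of 0.13 in LacZ (29 transcripts) and 0.14 in GCN5 (21 transcripts). The counts thus did not show the difference of mix that the labels give. Values are TMM-scaled unless the spike-in is named, and spike-in results stand beside them because the series names the ERCC mix as its normalization control. TMM scaling sets levels relative to the bulk of genes, whereas spike-in scaling sets them relative to added RNA.

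Hsf1 siRNA lowered Hsf1 in both lines, and less deeply in the GCN5 line. Hsf1 (GRCm38 chr15:76477367-76500982) stood at 129, 129 and 135 CPM in LacZ siControl and at 57.7, 55.5 and 47.9 CPM in LacZ siHsf1 libraries. In the GCN5 line it stood at 137, 121 and 138 CPM under siControl, against 68.1, 74.7 and 73.2 CPM under siHsf1. All 6 siHsf1 libraries lay below all 6 siControl libraries, and the 3 GCN5 siHsf1 libraries lay above the 3 LacZ siHsf1 libraries. The log2 fold change was -1.28 in LacZ and -0.88 in GCN5, an interaction of 0.41 ± 0.112 (SE; edgeR adjusted p = 0.0105). The knockdown was thus 68.4% as deep in GCN5 as in LacZ on the log2 scale, a difference whose part in the interactions of other genes was not tested. With spike-in scaling the Hsf1 interaction was 0.72 and did not pass (edgeR adjusted p = 0.757).

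Kat2a and Myc fell with the knockdown in LacZ and did not fall in GCN5. Kat2a (chr11:100704746-100712478) stood at 216, 215 and 220 CPM in LacZ siControl, at 125, 118 and 130 CPM in LacZ siHsf1, at 263, 234 and 246 CPM in GCN5 siControl and at 248, 253 and 245 CPM in GCN5 siHsf1 libraries. The LacZ groups did not overlap and the GCN5 groups did, with an interaction of 0.81 ± 0.087 (edgeR adjusted p = 2.32e-07). Since the species of the tagged GCN5 is not given, Kat2a counts in the GCN5 line may include reads of the construct. Whether the cells' own Kat2a lost its fall there was not tested. Myc (chr15:61985341-61990361) stood at 131, 143 and 148 CPM in LacZ siControl and at 99.7, 89.6 and 88.3 CPM in LacZ siHsf1. In the GCN5 line Myc stood at 130, 108 and 125 CPM under siControl, against 158, 144 and 139 CPM under siHsf1, all 3 of the latter higher. Its log2 fold change was -0.60 in LacZ and 0.28 in GCN5, where the test did not pass (edgeR adjusted p = 0.236). The Myc interaction was 0.88 ± 0.111 (edgeR adjusted p = 2.44e-06). Neither gene's interaction passed with spike-in scaling (edgeR adjusted p = 0.447 for Kat2a and 0.39 for Myc), while both passed once the replicate number was added to that fit as a block (0.00435 and 0.00238).

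**Figure D1:**
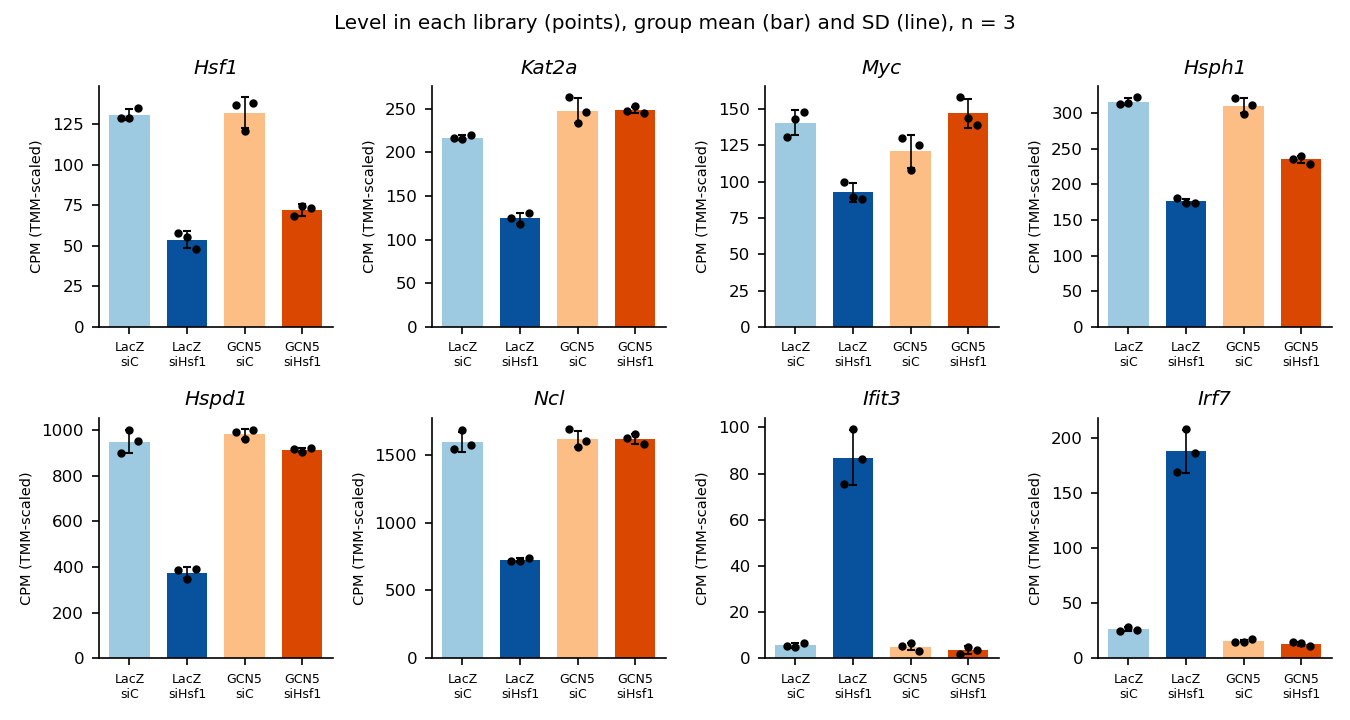
CPM (TMM-scaled, linear axis from 0) of 8 genes in the 4 groups; bars are means, whiskers SD over 3 libraries, and points the single libraries. Kat2a, Myc, Hspd1 and Ncl are low in LacZ siHsf1 alone, Ifit3 and Irf7 are high there alone, and Hsf1 and Hsph1 are low with siHsf1 in both lines, less so in GCN5.

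The interaction passed the test for 2675 of 12187 genes, 21.9% of those tested (edgeR quasi-likelihood test, two-sided, Benjamini-Hochberg adjusted p under 0.05), and 4060 had an unadjusted p under 0.05. It was higher for 1341 genes (11.0%) and lower for 1334 (10.9%), and 2562 of the 2675 are protein-coding. The interaction had a size of at least 1 on the log2 scale, which is a difference of at least 2-fold between the lines in the response, in 401 genes. Just inside the threshold lay Dnah7b, at -2.05 with an edgeR adjusted p of 0.04995, and just outside it Map4k3, at -0.38 with 0.05009. In LacZ itself the knockdown was called higher for 2571 genes (21.1%) and lower for 2373 (19.5%). In GCN5 it was called for 20 genes (0.164%; 8 higher and 12 lower), while 1177 had an unadjusted p under 0.05 there. The median standard error of the log2 fold change over the genes whose LacZ effect was lost was 0.0861 in LacZ and 0.0949 in GCN5. In a bulk library fewer cells of a type and less RNA per cell cannot be told apart, which holds for all values given here.

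Spike-in scaling left far fewer calls. It gave 48 interactions (0.394%), 21 higher and 27 lower, of which 39 were also called in the same direction with TMM, and 924 had an unadjusted p under 0.05. It moved the median interaction of all genes from -0.02 to 0.32, through a median knockdown effect of -0.35 in LacZ against -0.04 in GCN5. The common biological coefficient of variation was 0.274 with spike-in scaling and 0.089 with TMM. When the replicate number was added as a block to the spike-in fit, 855 interactions passed, 745 higher and 110 lower, against the nearly even split with TMM. This shift by itself favours positive signs on the spike-in scale. In the class whose LacZ effect was lost, the spike-in interaction had the same sign in 1276 of 1276 genes that fell in LacZ and in 1154 of 1243 that rose.

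**Figure D2:**
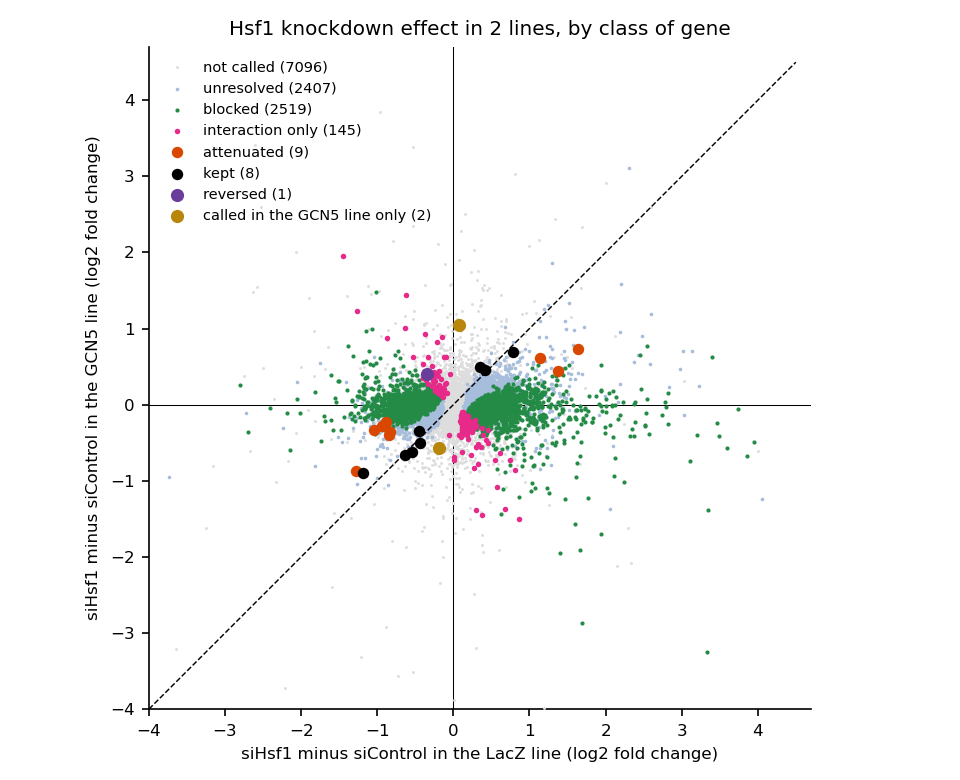
Log2 fold change by siHsf1 in LacZ (horizontal) against that in GCN5 (vertical) for the tested genes (TMM, 12 libraries), coloured by class; 3 genes lie outside the axes. The cloud is stretched along the LacZ axis and stays near 0 on the GCN5 axis, with the 8 kept genes near the diagonal.

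Of the 4944 genes called in LacZ, 2519 (51%) had a LacZ effect, an interaction of the opposite sign and no call in GCN5, and are named blocked here. They made up 94.2% of all interaction calls. A further 2407 had neither an interaction nor a GCN5 call and are named unresolved, 9 were attenuated (called in both lines, with an interaction that makes GCN5 smaller), 8 were kept (called in both lines the same way, no interaction) and 1 was reversed. A group of 145 genes had an interaction but no call in either line, 1 gene (Flt1) was called in GCN5 and for the interaction only, and 1 (Habp4) in GCN5 only. The remaining 7096 genes had none of these calls. The classes use the same libraries as the interaction, so their shapes describe and do not support it.

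The share of LacZ-called genes with an interaction rose with the size of the LacZ effect up to 0.5 and was about level above 0.5. It was 18.2% of 516 genes with a LacZ effect under 0.25 on the log2 scale, 41.4% of 2234 between 0.25 and 0.5, 68.5% of 1198 between 0.5 and 0.75, 71.3% of 478 between 0.75 and 1, 65.6% of 363 between 1 and 1.5 and 71% of 155 above 1.5. The interaction contains the LacZ effect with its sign turned, from the same libraries, so part of this rise is built in. Over all 4944 genes the GCN5 effect had the sign of the LacZ effect in 59.8%, and its median was 7.53% of the LacZ effect. Unresolved genes thus include many whose LacZ effect was small, with a median of 0.38 for the 1322 that rose and -0.35 for the 1085 that fell. Their median effect in GCN5 was 0.10 and -0.09, and 25.2% of the LacZ effect remained at the median. Among them, Hspb1, the small heat-shock protein HSP27, stood at 44.7, 50.1 and 46.6 CPM in LacZ siControl and at 23.6, 26.5 and 20.4 CPM in LacZ siHsf1. In GCN5 it stood at 36.2, 39.3 and 34.1 CPM under siControl, against 26.2, 27.3 and 19.9 CPM under siHsf1, again without overlap. Its interaction of 0.42 ± 0.172 did not pass (edgeR adjusted p = 0.0817). Across all 12187 genes the LacZ and GCN5 effects, which share no library, correlated at Pearson r = 0.055, a description over genes that are not independent.

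Blocked genes were near even in direction: 1243 rose and 1276 fell in LacZ. For those that rose, the median log2 fold change was 0.58 in LacZ and -0.05 in GCN5, or 1.5-fold against 0.966-fold. For those that fell it was -0.55 in LacZ and 0.01 in GCN5, or 0.684-fold against 1.01-fold. The siControl and siHsf1 libraries did not overlap in LacZ for 2485 of the 2519 genes, against 6076 of all 12187. In GCN5 they did not overlap for 566 of the 2519, against 2297 of all 12187. The GCN5 count is thus near the share of all genes. The 95% interval of the GCN5 effect stopped short of 50% of the LacZ effect in 2083 of the 2519 genes. The same held for 2194 of the 4944 genes called in LacZ and for 2841 of all 12187. Every GCN5 estimate of the blocked class was under 50%. A gene enters the class only if its interaction passed, which favours low or opposite estimates in GCN5: the GCN5 effect had the sign of the LacZ effect in 41.4% of blocked genes. A missing GCN5 call does not show that the effect there is 0.

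Split by where the GCN5 line stood under siControl, 2163 blocked genes started at the LacZ level within the test (1013 that rose and 1150 that fell in LacZ). Under siControl, 664 genes (5.45%) were called higher and 506 (4.15%) lower in GCN5 than in LacZ. Among the blocked genes, 168 already lay on the side to which the knockdown moved them in LacZ, and 188 on the opposite side. On a scale relative to LacZ siControl, the 1013 that rose from the same start had medians of 0.57 in LacZ siHsf1, 0.02 in GCN5 siControl and -0.04 in GCN5 siHsf1. The 114 that rose and started on the knockdown side had 0.66, 0.46 and 0.45, so GCN5 cells sat at a raised level with or without the siRNA. The 116 that rose and started opposite had 0.80, -0.40 and -0.43. Of the genes that fell, the 1150 from the same start had -0.55, -0.01 and 0.00, the 54 on the knockdown side -0.57, -0.39 and -0.41, and the 72 opposite -0.49, 0.38 and 0.40. The start and the LacZ effect both use the LacZ siControl libraries, whose error tilts this split.

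**Figure D3:**
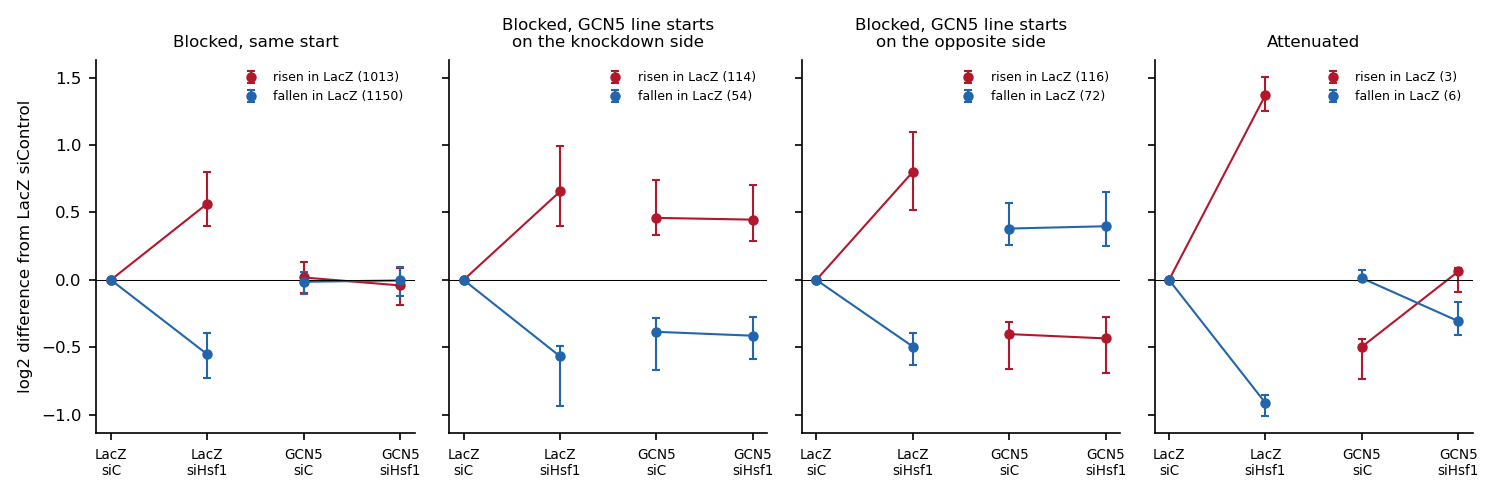
Median (points) and quartiles (bars) of the log2 difference from LacZ siControl in each group, by class and direction in LacZ. In GCN5 siHsf1 the medians of blocked genes lie near those of GCN5 siControl, which the class rule favours. That level is near LacZ siControl for most blocked genes and raised or lowered in the smaller subclasses. The 9 attenuated genes differ with siHsf1 in both lines.

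Genes of ribosome production fell in LacZ and lost the fall in GCN5. Of 55 nucleolar ribosome biogenesis genes, 47 had a called interaction, each positive, against 11.0% of all genes, with a median effect of -0.73 in LacZ and 0.00 in GCN5. Ncl, nucleolin (chr1:86344719-86359455), stood at 1540, 1680 and 1570 CPM in LacZ siControl, 720, 717 and 741 CPM in LacZ siHsf1, 1690, 1560 and 1600 CPM in GCN5 siControl and 1620, 1650 and 1580 CPM in GCN5 siHsf1. LacZ siHsf1 was far below the other 3 groups, which overlapped, and the interaction was 1.14 ± 0.0731 (edgeR adjusted p = 6.53e-11). The 95% interval of its GCN5 effect ran from -0.11 to 0.11. Dkc1, the pseudouridine synthase of box H/ACA particles, had an interaction of 1.35, Mybbp1a, a MYB-binding nucleolar protein, 1.08, and Ddx21, an rRNA helicase, 1.00. C1qbp, a mitochondrial matrix protein outside this list, had 1.51 and also passed with spike-in scaling (edgeR adjusted p = 0.0177).

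Ribosomal proteins followed with a remainder in GCN5. An interaction was called for 63 of 79, each positive, with a median effect of -0.67 in LacZ and -0.13 in GCN5. The GCN5 effect lay below 0 in 73 of the 79, against 6222 of all 12187 genes, and 20% of the LacZ effect remained at the median. Neither edgeR nor DESeq2 called any of the 79 in GCN5, where 25 were lower at an unadjusted edgeR p under 0.05. Rpl12, a protein of the large subunit (chr2:32961712-32964045), stood at 925, 1140 and 897 CPM in LacZ siControl and at 456, 474 and 476 CPM in LacZ siHsf1. In GCN5 it stood at 891, 964 and 891 CPM under siControl, against 837, 851 and 825 CPM under siHsf1. All 3 GCN5 siHsf1 libraries were thus slightly lower, and the interaction was 0.95 ± 0.0981 (edgeR adjusted p = 1.81e-07). Ribosomal protein genes have many processed pseudogenes, so their single values are uncertain where reads were shared. Of 74 mitochondrial ribosomal proteins, which are not part of this particle, 11 had a higher and 1 a lower interaction. Of all genes 11.0% were higher and 10.9% lower, so the count of 11 is near the background.

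Other growth lists that fell in LacZ had lower shares of called interactions than the nucleolar list, each above the 11.0% of all genes. A positive interaction was called for 20 of 30 classical MYC targets, 24 of 31 nucleotide synthesis genes, 24 of 42 translation factors and 9 of 22 aminoacyl-tRNA synthetases, and a negative one for 1 translation factor and 1 synthetase. Median effects in LacZ and GCN5 were -0.61 and -0.02 for MYC targets, -0.54 and -0.02 for nucleotide synthesis and -0.37 and -0.03 for translation factors. Cad, the enzyme that opens pyrimidine synthesis (chr5:31054696-31078479), stood at 266, 223 and 289 CPM in LacZ siControl, 143, 130 and 123 CPM in LacZ siHsf1, 304, 284 and 279 CPM in GCN5 siControl and 306, 314 and 316 CPM in GCN5 siHsf1. Its groups overlapped in neither line, but the order was opposite, and the interaction was 1.08 ± 0.111 (edgeR adjusted p = 1.47e-07). The purine enzymes Gart and Atic had interactions of 0.96 and 0.81, the folate enzyme Mthfd1 1.07, and the elongation factors Eef1a1 and Eef2 0.73 and 0.58. In the MYC, MAX and MXD network 3 of 11 were higher (Myc, Mxi1 and Mxd3) and 1 lower (Mnt, at -0.68), while Max itself had -0.06 (edgeR adjusted p = 0.796). The Mxd3 call of 0.57 held in 4 of 12 fits that each left out 1 library, and the Mxi1 call of 0.65 was lost without GCN5 siHsf1 replicate 1, at an edgeR adjusted p of 0.0545.

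Mitosis genes fell in LacZ and not in GCN5, whereas replication genes showed no common direction. Of 36 mitosis and G2/M genes 32 had a called interaction, each positive, with medians of -0.55 in LacZ and -0.01 in GCN5. Aurka, the spindle kinase Aurora A (chr2:172356190-172370706), stood at 120, 130 and 120 CPM in LacZ siControl, 66.8, 71.6 and 69.5 CPM in LacZ siHsf1, 115, 121 and 122 CPM in GCN5 siControl and 114, 122 and 117 CPM in GCN5 siHsf1. LacZ siHsf1 again stood alone, and the interaction was 0.81 ± 0.0947 (edgeR adjusted p = 8.26e-07). Top2a, the mitotic DNA topoisomerase, had 0.58, Aurkb 0.72 and Hmmr, a spindle assembly protein, 0.79. Of 40 DNA replication and E2F genes 3 were higher and 4 lower, with a median effect of -0.02 in each line. These counts are no higher than the shares of all genes, 11.0% higher and 10.9% lower.

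Metabolic and stress lists had fewer calls. A positive interaction was called for 13 of 34 proteasome subunits, 12 of 28 glycolysis and hypoxia genes, 11 of 32 p53 targets, 9 of 22 NRF2 antioxidant genes, 5 of 22 endoplasmic reticulum chaperone and unfolded protein genes, 5 of 20 ATF4 and serine synthesis genes and 5 of 51 respiratory chain genes, against 11.0% of all genes, so that the respiratory chain count is near the background. A negative one was called for 1 gene each of the p53, NRF2 and unfolded protein lists and for 5 of the ATF4 list. The respiratory chain list had a GCN5 effect below 0 in 49 of 51 genes, with medians of -0.13 in LacZ and -0.11 in GCN5, and 4 of the 51 were lower in GCN5 at an unadjusted edgeR p under 0.05. Eda2r, a p53-induced receptor (chrX:97333837-97377218), had the largest interaction of the p53 list. It stood at 18.4, 18.6 and 18.1 CPM in LacZ siControl, 5.52, 3.42 and 4.4 CPM in LacZ siHsf1, 15.4, 13.3 and 13.3 CPM in GCN5 siControl and 15.9, 14.9 and 13.6 CPM in GCN5 siHsf1. The interaction of 2.13 ± 0.232 passed with TMM (edgeR adjusted p = 2.93e-07) and with spike-in scaling (edgeR adjusted p = 0.000903). Ccng1, cyclin G1, had 1.07 and Cdkn1a, the CDK inhibitor p21, 1.29.

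Cholesterol and fatty acid synthesis genes gave the clearest group with a raised start in GCN5. The median line effect of the 31 genes under siControl was 0.58, and 8 had a positive interaction, 7 of them from the opposite start. Scd2 and Elovl6, of fatty acid desaturation and elongation, had 0.69 and 1.06 and started 0.75 and 0.84 higher in GCN5.

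Cytosolic heat-shock chaperones, the classical HSF1 targets, fell in LacZ and in part still fell in GCN5. Of 26 tested, 18 fell in LacZ and 6 in GCN5. A positive interaction was called for 11, 6 blocked and 5 attenuated, 1 gene (Dnajb1) was kept and 6 were unresolved. The GCN5 effect lay below 0 in 23 of 26, with medians of -0.48 in LacZ and -0.18 in GCN5, and 30.9% of the LacZ effect remained at the median of the 18 that fell. At an unadjusted edgeR p under 0.05, 13 of the 26 were lower in GCN5, and DESeq2 called 9 there. Cryab, a small heat-shock protein named after its value was seen, was the 1 with a negative interaction, at -0.34 (edgeR adjusted p = 0.0418), with -0.06 in LacZ and -0.40 in GCN5, neither called. With spike-in scaling the median interaction of the list was 0.63, or 0.31 above that of all genes.

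The attenuated class held 6 genes that fell, and 5 of them are chaperones or their partners. Hsph1, the HSP110 chaperone (chr5:149616843-149637155), stood at 313, 314 and 322 CPM in LacZ siControl, 181, 174 and 174 CPM in LacZ siHsf1, 321, 299 and 312 CPM in GCN5 siControl and 236, 240 and 229 CPM in GCN5 siHsf1. Its log2 fold change was -0.84 in LacZ and -0.40 in GCN5, with an interaction of 0.44 ± 0.0792 (edgeR adjusted p = 0.000217). Hsp90ab1, the constitutive HSP90 (chr17:45567778-45573261), stood at 3290, 3400 and 3330 CPM in LacZ siControl, 1840, 1770 and 1790 CPM in LacZ siHsf1, 3650, 3490 and 3540 CPM in GCN5 siControl and 3070, 3050 and 3020 CPM in GCN5 siHsf1. Neither line's groups overlapped for these genes. The percentage of the LacZ effect seen in GCN5 was 25.1 for Hsp90ab1, 32 for the HSP90 co-chaperone Fkbp4 and 47.8 for Hsph1, with 68.4 for Hsf1 itself. The others of this class that fell, Hsp90aa1, the inducible HSP90, and Ahsa1, which activates its ATPase and is named after its values were seen, had interactions of 0.66 and 0.47. For genes that fell, attenuated and blocked are set apart by the GCN5 call, which Hsp90ab1 passed narrowly (edgeR adjusted p = 0.0483). Hspa8, a blocked gene of the chaperone list, had 27.9% of its LacZ effect left. Its GCN5 effect was -0.20 (edgeR adjusted p = 0.107), without overlap of the GCN5 groups.

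The 3 attenuated genes that rose started lower in GCN5 as well. Abca1, the cholesterol exporter (chr4:53030789-53159988), stood at 35.8, 29 and 31.9 CPM in LacZ siControl, 106, 91.8 and 103 CPM in LacZ siHsf1, 16, 16.8 and 16.3 CPM in GCN5 siControl and 25, 29.1 and 27.4 CPM in GCN5 siHsf1. The knockdown therefore raised it in both lines, by 1.64 and 0.73 on the log2 scale, and the GCN5 siHsf1 libraries overlapped LacZ siControl. Fgf7, a fibroblast growth factor, had effects of 1.37 and 0.45 with an interaction of -0.92, and Txnip, the thioredoxin-binding protein, 1.13 and 0.61 with -0.53. The Txnip interaction was lost without GCN5 siControl replicate 1, at an edgeR adjusted p of 0.0721.

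Called genes of the mitochondrial chaperones and of the TRiC chaperonin, which folds actin and tubulin, had no call in GCN5. Of 12 mitochondrial chaperones 5 had a positive interaction, and of 13 TRiC and prefoldin genes 9, all of them TRiC subunits but the prefoldin Pfdn4, and no other member was called. At an unadjusted edgeR p under 0.05, 5 of the 13 and 1 of the 12 were lower in GCN5, where 10 of the 13 lay below 0 and 15.8% of the LacZ effect remained at the median of the 10 that fell. Hspd1, HSP60 (chr1:55077834-55088217), stood at 899, 999 and 952 CPM in LacZ siControl, 385, 348 and 392 CPM in LacZ siHsf1, 990, 963 and 1000 CPM in GCN5 siControl and 919, 904 and 921 CPM in GCN5 siHsf1. Its fall of 1.34 in LacZ left 8.14% in GCN5, and the interaction was 1.23 ± 0.0793 (edgeR adjusted p = 6.53e-11). Hspe1, its partner HSP10, which starts head to head with Hspd1 and whose promoter is printed above, had -0.92 in LacZ and -0.32 in GCN5, with an interaction of 0.60 (edgeR adjusted p = 0.000561). The 95% interval of the GCN5 effect, not adjusted over genes, lay below 0 for Hspe1 (-0.49 to -0.15) and for Cct3 (-0.31 to -0.08). Cct3 had an interaction of 0.71, Cct6a 0.74 and Trap1, the mitochondrial HSP90, 0.66.

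The 8 kept genes had calls in both lines and no interaction. Ccnd3, cyclin D3 (chr17:47505051-47599689), stood at 146, 137 and 159 CPM in LacZ siControl, 60.2, 71.1 and 62.8 CPM in LacZ siHsf1, 149, 146 and 138 CPM in GCN5 siControl and 77, 75.2 and 80.7 CPM in GCN5 siHsf1. It fell by 1.18 in LacZ and by 0.90 in GCN5, and its interaction of 0.29 lay near the threshold (edgeR adjusted p = 0.0587). Dnajb1, an HSP40 co-chaperone (chr8:83608175-83612653), stood at 111, 117 and 115 CPM in LacZ siControl, 77.3, 94.5 and 80.3 CPM in LacZ siHsf1, 120, 109 and 120 CPM in GCN5 siControl and 88.3, 74.5 and 83.3 CPM in GCN5 siHsf1. It fell by 0.44 in LacZ and by 0.50 in GCN5, and the interaction was -0.06 ± 0.115 (edgeR adjusted p = 0.769). Dazap2, Zbed3 and Ccndbp1, the last named after its values were seen, also fell in both. Ptgs2, the prostaglandin synthase COX-2 (chr1:150100031-150108234), stood at 102, 93.6 and 97.9 CPM in LacZ siControl, 173, 156 and 178 CPM in LacZ siHsf1, 90, 84.7 and 77.8 CPM in GCN5 siControl and 128, 139 and 141 CPM in GCN5 siHsf1. It rose by 0.79 and 0.69, and Thbd, thrombomodulin, and Phlda1 rose in both lines too. No interaction in this class does not show equal effects.

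Papd5, a noncanonical poly(A) polymerase (chr8:88199213-88262997), was the 1 reversed gene. It stood at 93.6, 86 and 89.3 CPM in LacZ siControl, 74.1, 67.9 and 69.9 CPM in LacZ siHsf1, 74.6, 75.4 and 78.1 CPM in GCN5 siControl and 110, 97.2 and 94.8 CPM in GCN5 siHsf1. It fell by 0.34 in LacZ and rose by 0.40 in GCN5 (edgeR adjusted p = 0.0256), with an interaction of 0.75 ± 0.107 (edgeR adjusted p = 1.35e-05). Flt1, a VEGF receptor (chr5:147562196-147726005), stood at 9.77, 9.49 and 9.3 CPM in LacZ siControl, 11.6, 8.13 and 10.4 CPM in LacZ siHsf1, 6.22, 5.97 and 3.88 CPM in GCN5 siControl and 11.5, 10.4 and 11.5 CPM in GCN5 siHsf1. The GCN5 siControl libraries were the low ones, and GCN5 siHsf1 lay within the LacZ range (effect 1.05 in GCN5 and 0.07 in LacZ, interaction edgeR adjusted p = 0.0123). These small classes hang on single libraries. Leaving out 1 library at a time gave 2 to 26 attenuated, 2 to 28 kept and 0 to 16 reversed genes, the highest each time without LacZ siControl replicate 2, and 0 reversed without any 1 of the 6 GCN5 libraries.

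The 145 genes with an interaction and no call in either line had small median effects, with the same sign in both lines in 1 gene. The rule of the class favours this shape, because the interaction is the GCN5 effect minus the LacZ effect and neither effect was called. The opposite movement is therefore largely built in and is not a separate result. The library overlaps given below carry the same selection. The 57 with a positive interaction had medians of -0.22 in LacZ and 0.29 in GCN5, and the 88 with a negative one 0.18 and -0.28. The siControl and siHsf1 libraries did not overlap in GCN5 for 115 of the 145, against 2297 of all 12187 genes. In LacZ they did not overlap for 57 of the 145, a lower share than the 6076 of all 12187. Ereg, the growth factor epiregulin, stood at 19.5, 21.5 and 17.7 CPM in LacZ siControl, 18.4, 12.4 and 17.7 CPM in LacZ siHsf1, 19.5, 19.3 and 19.9 CPM in GCN5 siControl and 27.9, 29.6 and 25.8 CPM in GCN5 siHsf1. GCN5 siHsf1 was the high group, with an interaction of 0.79 ± 0.198 (edgeR adjusted p = 0.00531). Hmga2, a chromatin protein of growing cells, had 0.68. Fscn1, an actin-bundling protein, and S100a11, a calcium-binding protein, had interactions of -0.30 and -0.35, which were 0.01 and -0.02 with spike-in scaling.

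Type I interferon response genes rose in LacZ and lost the rise in GCN5, with the highest share of called interactions among the 31 lists. All 34 tested rose in LacZ, and 33 had a negative interaction, against 10.9% of all genes. Oas2, named after its values were seen, was the exception, at -3.17 with an edgeR adjusted p of 0.323. In GCN5 edgeR called none of the 34 and DESeq2 called 2, both lower, while 5 were lower and 1 higher at an unadjusted edgeR p under 0.05. Median effects were 2.13 in LacZ and -0.17 in GCN5, and 14 of the 33 started lower in GCN5 siControl than in LacZ siControl. Irf7, an interferon regulatory factor (chr7:141263183-141266499), stood at 25, 28.5 and 25.9 CPM in LacZ siControl, 169, 208 and 186 CPM in LacZ siHsf1, 14.9, 14.9 and 17.2 CPM in GCN5 siControl and 14.7, 13.7 and 11 CPM in GCN5 siHsf1. LacZ siHsf1 lay above all other libraries and both GCN5 groups below LacZ siControl, and the interaction was -3.08 ± 0.178 (edgeR adjusted p = 1.34e-11; with spike-in scaling 2.46e-05). Ifit1, an RNA-binding antiviral protein whose promoter is printed above, stood at 36, 43.9 and 45.4 CPM in LacZ siControl, 182, 187 and 194 CPM in LacZ siHsf1, 32.7, 31.7 and 31.3 CPM in GCN5 siControl and 25.2, 28.6 and 30.5 CPM in GCN5 siHsf1. Ifit3 and Ifit3b had interactions of -4.43 and -4.17, each uncertain because they are near-identical copies. With spike-in scaling 14 of the 34 passed, and the list's median was -1.92.

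Interferon-induced GTPases and antigen presentation genes had the same shape. Of 14 tested, 11 rose in LacZ and all 11 had a negative interaction, with a median effect over the 14 of 1.88 in LacZ and -0.08 in GCN5. Gbp3, a guanylate-binding protein (chr3:142560016-142573213), stood at 21.9, 24.9 and 21.9 CPM in LacZ siControl, 135, 131 and 129 CPM in LacZ siHsf1, 20, 24.4 and 23.5 CPM in GCN5 siControl and 21.4, 18.5 and 16 CPM in GCN5 siHsf1. Only LacZ siHsf1 stood apart, at an interaction of -2.80 ± 0.158 (edgeR adjusted p = 1.01e-11; with spike-in scaling 0.000197). B2m, the light chain of MHC class I, had -1.36. The summed level of 10 haematopoietic markers moved with these genes, at 26.7 to 27.3 CPM in LacZ siControl, 51.6 to 59.5 in LacZ siHsf1, 23 to 26.9 in GCN5 siControl and 25.5 to 30.7 in GCN5 siHsf1. Of these markers 3 were tested and 2, Cd14 and Cd68, had a negative interaction. In LacZ siControl and LacZ siHsf1 the means were 19.5 and 41.1 CPM for Cd14 and 6.74 and 12.8 CPM for Cd68. Csf1r stood at 0.742 and 0.759 CPM there, and at 2 and 1.78 CPM in GCN5 siControl and GCN5 siHsf1. Adgre1, Tyrobp, Itgam and Cd3e were among those at 0 in all 12 libraries. The part of haematopoietic cells in the interferon result was not tested.

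NF-kB, acute-phase and chemokine genes rose in LacZ, 23 of 29, and 14 had a called interaction, each negative. The median effect was 0.48 in LacZ and 0.05 in GCN5, and Ptgs2 alone was kept. Cxcl12, the chemokine SDF-1 (chr6:117168535-117181368), stood at 72.1, 70.6 and 81.9 CPM in LacZ siControl, 281, 345 and 272 CPM in LacZ siHsf1, 69.5, 60.2 and 64.8 CPM in GCN5 siControl and 52.7, 54.4 and 52.1 CPM in GCN5 siHsf1. It was high in LacZ siHsf1 and in the GCN5 line had its lowest values with siHsf1, where the test did not pass, with an interaction of -2.29 ± 0.132 (edgeR adjusted p = 1.39e-11). Ccl5 had -1.38, Tnfaip3, an inhibitor of NF-kB signalling, -1.15, and Ccl7 -0.61. Immediate early genes had 6 negative and 1 positive interaction of 23, Myc being the positive one, with Dusp1, a MAP kinase phosphatase, at -1.87.

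Lysosome and autophagy genes had 22 called interactions of 30, each negative, with medians of 0.50 in LacZ and -0.08 in GCN5. Hexa, a lysosomal hexosaminidase (chr9:59539545-59565109), stood at 106, 126 and 101 CPM in LacZ siControl, 211, 246 and 212 CPM in LacZ siHsf1, 100, 91.2 and 102 CPM in GCN5 siControl and 89.7, 85.6 and 85.2 CPM in GCN5 siHsf1. LacZ siHsf1 was the high group, and the interaction was -1.18 ± 0.12 (edgeR adjusted p = 1.01e-07). Npc2, a cholesterol carrier of the lysosome, had -1.02, Atp6v0d1, of the proton pump, -1.07 and the membrane protein Lamp1 -0.67. With spike-in scaling the list's median was -0.17, or -0.49 relative to all genes.

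Smooth muscle actin and SRF targets had 14 called interactions of 22 and extracellular matrix genes 18 of 34, each negative. Acta2, smooth muscle actin (chr19:34240336-34255585), stood at 11.3, 12.3 and 12 CPM in LacZ siControl, 41.4, 59.4 and 47.4 CPM in LacZ siHsf1, 33.3, 39.6 and 37.1 CPM in GCN5 siControl and 31, 34.9 and 25.3 CPM in GCN5 siHsf1. It began 1.62 higher in GCN5 and did not pass there, with an interaction of -2.33 ± 0.194 (edgeR adjusted p = 4.82e-09). Mmp13, a collagenase, had -2.87 and Col1a2, a chain of collagen I, -0.72. The summed fibroblast markers were 6550 to 7250 CPM in LacZ siControl, 9370 to 10800 in LacZ siHsf1, 8120 to 8290 in GCN5 siControl and 8420 to 8620 in GCN5 siHsf1, with a negative interaction in 6 of 9 tested. These markers include collagens of the list, and their part in its result was not tested. On the spike-in scale the medians were -0.09 for SRF targets, -0.04 for matrix, -0.02 for NF-kB genes and 0.04, a turn of sign, for immediate early genes, while all genes had 0.32.

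Subunits of SAGA and ATAC, the complexes of GCN5, had a lower share of interaction calls than the 21.9% of all genes. Of 25, Kat2a and Taf5l had a positive and Atxn7l3, of the deubiquitinase module, a negative interaction, and 16 had no call at all. Atxn7l3, at -0.26 (edgeR adjusted p = 0.0418), held in 1 of 12 fits that each left out 1 library, and Taf5l, at 0.39, was lost without GCN5 siHsf1 replicate 1 (edgeR adjusted p = 0.0516). The paralog Kat2b had -0.14 (edgeR adjusted p = 0.494). Of the heat shock factors Hsf1 alone had an interaction, and Hsf2 had 0.20 (edgeR adjusted p = 0.447). Of 17 circadian clock genes 4 had a called interaction, each negative. Of all genes 21.9% were called in either direction, near this share, and 10.9% were called lower. Among the fits that each left out 1 library, the call of Bhlhe40 held in 12 of 12, that of Nfil3 in 11 (lost without GCN5 siControl replicate 3, edgeR adjusted p = 0.0583), that of Nr1d1 in 4 and that of Per1 in 3.

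**Figure D4:**
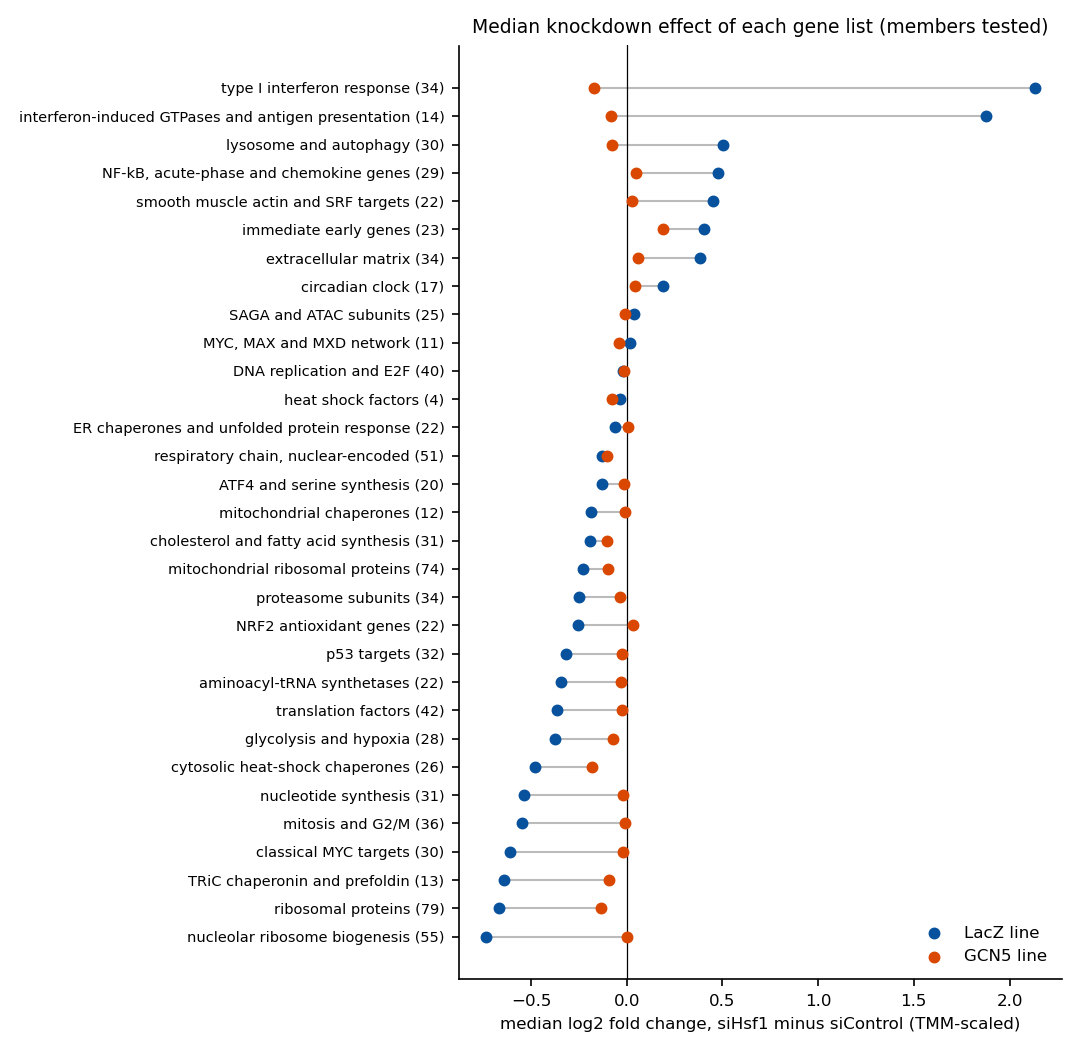
Median log2 fold change by siHsf1 in LacZ and in GCN5 for the 31 gene lists (TMM). The LacZ medians run from the nucleolar and ribosomal lists at -0.73 and -0.67 to the interferon list at 2.13, while the GCN5 medians stay between -0.18 and 0.19.

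The largest positive interactions outside the lists belonged to genes of low level. Reep6, an endoplasmic reticulum membrane protein (chr10:80330003-80336441), stood at 11.8, 12 and 15 CPM in LacZ siControl, 1.93, 3.18 and 2.08 CPM in LacZ siHsf1, 5.41, 5.7 and 7.2 CPM in GCN5 siControl and 6.01, 5.57 and 6.1 CPM in GCN5 siHsf1. GCN5 cells held a level between the LacZ groups with either siRNA, and the interaction was 2.37 ± 0.325 (edgeR adjusted p = 8.24e-06; with spike-in scaling 0.00085). Ppl, periplakin, had 2.00, and Acsbg1, an acyl-CoA synthetase, 1.82. By smallest p at high level, Nedd4, a ubiquitin ligase, had 1.36 ± 0.0923 and passed with both scalings (edgeR adjusted p = 1.47e-10 and 0.0429), and Ywhae, the 14-3-3 epsilon protein, had 1.13. On the negative side Phf11d, Ifi44, Omd, Usp18, Xaf1 and Oas1a ranged from -4.53 to -2.96 and all 6 passed with spike-in scaling. Ifi44, Usp18, Xaf1 and Oas1a are known interferon-induced genes, and Omd is the matrix protein osteomodulin.

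A readout that the classes did not use is the c-MYC CUT&RUN, where a nuclease tethered by an antibody cuts out bound DNA. It was done in MEFs with Hsf1 (WT, ethanol) and in a conditional knockout (CKO, 4-OHT for 7 days). These are other cells than the siRNA lines, with 1 peak list per genotype, so the shares have no replicate error and their 95% Wilson intervals cover counting error only. A WT peak lay within 1 kb of the start of 86.7% of 1274 blocked genes that fell in LacZ (84.7 to 88.4) and of 80.5% of 1242 that rose (78.2 to 82.6), against 77.3% of all 12153 tested genes with a start on a listed chromosome. Unresolved genes had 79.1% when they fell and 75.8% when they rose, and genes with no call 75%. In the CKO list, which has 6386 peaks against 220037, the shares were 57%, 35.4% and 35.2%. Blocked genes that fell also had the higher level, with a median log2 CPM of 6.48 against 5.70 for those that rose and 5.08 for all, and its part in the shares was not tested. The WT peaks are uneven over chromosomes, with a peak at 96% of tested starts on chromosome 15 and 50% on chromosome 18, leaving aside Y with 2 tested genes. Of the small classes, 8 of 9 attenuated and 8 of 8 kept genes had a WT peak.

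Promoter letters were searched in 300 bases, 250 before and 50 after the start, on both strands, for the 9232 tested genes matched to RefSeq. The E-box was present in 13.6% of blocked genes that fell, 13% of those that rose and 10.5% of all tested genes, and in 7.15% of the 32851 promoters in the table. The heat shock element was found in 11.7%, 11.9%, 11.4% and 15.1% of the same sets. It was found in 9 of 21 cytosolic chaperones (42.9%, Wilson 95% interval 24.5 to 63.5) and in 2 of 6 attenuated genes. An ISRE stood in 7.02% of blocked genes that rose, 2.96% of those that fell and 2.99% of all tested genes, and in 3.44% of all promoters. It was in 13 of 23 type I interferon genes (56.5%) and 8 of 12 interferon-induced GTPase and antigen presentation genes. The E-box was in 8 of 23 lysosome and autophagy genes (34.8%, Wilson 95% interval 18.8 to 55.1), which rose in LacZ. It was in 9 of 46 nucleolar genes (19.6%, 10.7 to 33.2), which fell. Other lists ranged from 4 of 10 genes of the MYC, MAX and MXD network and 5 of 14 circadian clock genes to 0 of 23 type I interferon genes. Which protein binds these letters was not tested. Of the matched genes, 4325 have the same start in RefSeq and in the count table, and the nearest RefSeq start was used for the others.

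**Figure D5:**
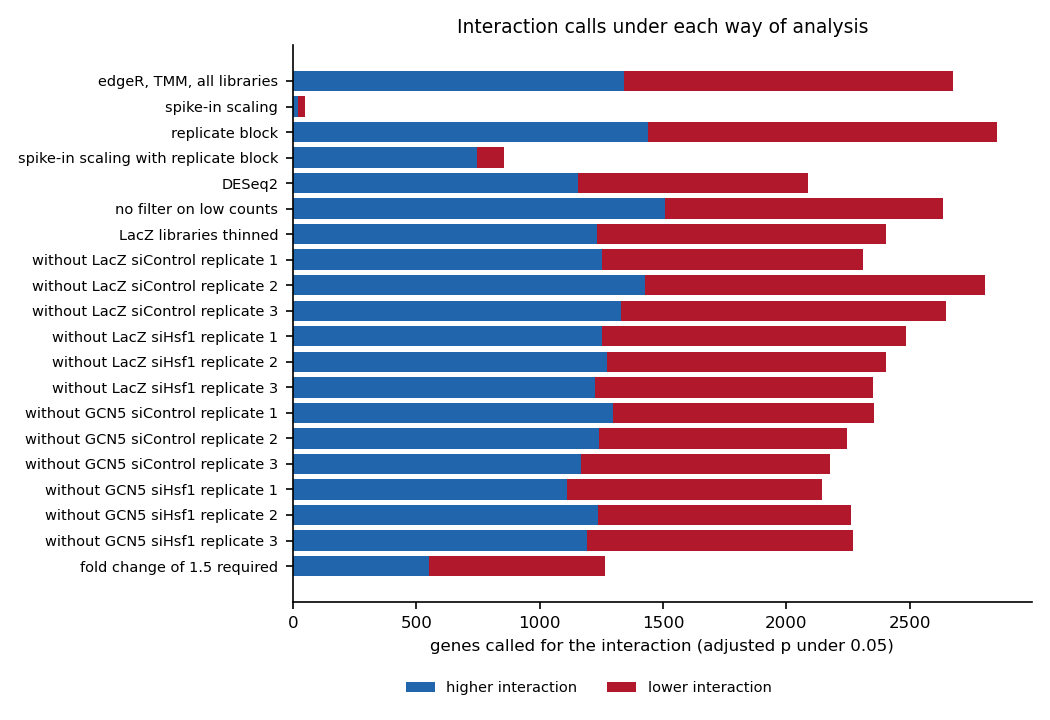
Number of genes with a called interaction, higher and lower, under each way of processing. Fits without the spike-in stay between 1267, where a 1.5-fold difference was required, and 2853, whereas spike-in scaling gives 48 and, with the replicate number as a block, 855.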

How the data were processed

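RNA of 12 libraries was analysed through the table of read counts per gene that the authors deposited, whole numbers for 41608 genes and 92 ERCC transcripts, with no normalization. Per the submitters' processing notes reads were mapped with HISAT2 to GRCm38; the counting program, its strand setting and tool versions were not given in the sources used here, so reads of overlapping or antisense genes may be mixed. The deposited FPKM table was not used. The c-MYC peaks deposited by the authors carry a signal, the coverage summed over the peak by SEACR after Bowtie2 mapping per the submitters' processing notes, used here only to split the list at its median of 3.37; whether replicates were pooled is not stated.

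Counts were tested in R 4.3.3 with edgeR 4.0.16 (filterByExpr, minimum count 10; TMM; robust quasi-likelihood fit of 4 group means, 8 residual degrees of freedom; two-sided; Benjamini-Hochberg over 12187 genes). Standard errors are those of the fitted log2 fold change. The labels call the libraries triplicates without saying whether they are separate cultures, so p-values measure the spread between these libraries, which may be technical. Spike-in scaling used the summed counts of ERCC subgroup B, whose members were listed from general knowledge of the product. DESeq2 1.42.0, a replicate block, no filter, thinned LacZ libraries, a 1.5-fold threshold and leaving out each library were alternatives.

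The comparison, the classes, the 31 gene lists (919 of 954 members tested) and the markers were chosen with earlier results of these data known, and no list was tested. Genes named are Hsf1, Kat2a and Myc; the 10 largest called interactions each way in protein-coding genes whose mean log2 CPM was 2 or more; the 4 with the smallest p per class, direction and blocked subclass; and up to 4 called members per list (up to 2 where none was called). Others are said to be named after their values were seen. The script was tested on simulated data. The 4 samples of another siRNA were not analysed here.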

Additional observations from a re-analysis of the deposited data

Results flagged for a closer look

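The knockdown effect differed between the LacZ and the GCN5 line, by the edgeR test of the interaction itself, for 2675 genes, 1341 with a positive and 1334 with a negative difference. Genes that were also given singly for this reason are Hsf1 (0.41), Kat2a (0.81), Myc (0.88), the chaperone genes Hsph1 (0.44), Ahsa1 (0.47), Hsp90aa1 (0.66), Hsp90ab1 (0.67) and Fkbp4 (0.71), and Papd5 (0.75) and Flt1 (0.98), on the log2 scale. The difference was negative for Txnip (-0.53), Abca1 (-0.91) and Fgf7 (-0.92). Kat2a counts of the GCN5 line may include reads of the construct, whose species is not given. With spike-in scaling the edgeR adjusted p of these single genes lay between 0.39 and 0.93. With the replicate number as a block in the spike-in fit, Kat2a, Myc, Fkbp4, Hsp90aa1, Hsp90ab1, Papd5 and Flt1 passed (edgeR adjusted p = 0.00238 to 0.0251). Groups of 3 libraries were not tested for a single value far from the others.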

How the results depend on the processing

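Spike-in scaling gave the lowest number of interactions among the alternatives: 48 passed (21 higher, 27 lower), with 26 blocked genes that rose, 19 that fell, 0 attenuated (no other tool was run with this scaling), 1 kept, 856 calls in LacZ and 5 in GCN5. With the replicate number as a block beside it, 855 passed (745 higher, 110 lower), with 104 and 729 blocked, 0 attenuated, 2 kept, 3 reversed and 8 calls in GCN5. The Hsf1 interaction did not pass in either (0.72 and 0.79; edgeR adjusted p = 0.757 and 0.0886). Of the TMM calls, 107 had the opposite sign with spike-in scaling and 174 with the block added, among them Atxn7l3 (0.081 and 0.13) and Fscn1 (0.009 and 0.07) in both, and Ryk (0.003) and S100a11 (0.023) with the block. Under TMM the replicate block gave 2853 interactions, 2640 of them shared with the fit without it, 4 reversed genes and 33 calls in GCN5. The numbers pair no culture by the labels. Deviations of same-numbered libraries of different groups correlated at r = -0.0615 to 0.101, against -0.0757 to 0.0615 for other numbers. Of 12 libraries, 8 were closest to their own number. DESeq2 gave 2088 interactions, 2041 of them shared, 14 attenuated, 6 reversed and 35 calls in GCN5. Without the filter on low counts there were 18 attenuated, 23 kept, 12 reversed and 84 calls in GCN5, and with thinned LacZ libraries 2 reversed. Requiring a 1.5-fold change left 1267 interactions (553 higher, 714 lower), 560 and 440 blocked, 1 attenuated, 5 kept, 0 reversed, 1716 calls in LacZ and 8 in GCN5. This was a cutoff on the estimated fold change beside the same adjusted p, not another test.

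Leaving out 1 library at a time gave 2143 to 2807 interactions. It gave 2 to 26 attenuated, 2 to 28 kept and 0 to 16 reversed genes and 4 to 98 calls in GCN5. The highest values came without LacZ siControl replicate 2, raised values (14 attenuated, 3 reversed, 31 calls in GCN5) without LacZ siHsf1 replicate 2, and 4 to 12 calls in GCN5 without any 1 of the GCN5 libraries. The cause was not tested. Of 158 named genes with a call, 157 kept it with the replicate block and 155 with DESeq2, but 22 with spike-in scaling and 105 with spike-in scaling and the block. A window of 5 kb around the start gave c-MYC peak shares of 90.3% and 92.6% for blocked genes that rose and fell and 87.8% for all, and peaks of the upper signal range 67.8%, 77.6% and 64.6%.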
